A study of Rattus norvegicus with 47 samples.

Results

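The blood mRNA of 4 matrix metalloproteinases (Mmp9, Mmp25, Mmp14 and Mmp19), 2 ADAM proteases (Adam8 and Adam17), 3 tissue inhibitors of metalloproteinases (Timp1, Timp2 and Timp3) and versican (Vcan), a matrix proteoglycan that such proteases cut, was followed in rats up to a day after stroke. The genes were taken by their symbols, 10 of the 20935 symbols on the array, each through the probe set with the highest mean over the time points, and every member had a single probe set. Whole blood was drawn from 8 male spontaneously hypertensive rats (SHR), 16 weeks old, at 0 h, before anesthesia was induced, and at 1, 2, 3, 6 and 24 h after occlusion of the middle cerebral artery (MCAo) with a thread. RNA from the blood cell pellet was hybridized to 47 Affymetrix rat gene arrays, with 7 arrays for 6 h and 8 for every other hour. The study's methods state that the thread was withdrawn, and blood flow let back, between the 1 h and 2 h samples. Blood was taken into heparin, from the tail vein until 6 h and by heart puncture after an anesthetic overdose at 24 h. The same rats were their own controls and no sham group was sampled, so occlusion, reperfusion, anesthesia, surgery, repeated bleeding and the hour of day cannot be told apart in any change from 0 h, nor can the place of bleeding at 24 h.

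Matrix metalloproteinases (MMPs) are zinc enzymes that cut collagens, proteoglycans and many signalling proteins, and several are stored ready-made in neutrophil granules or anchored on the leukocyte surface. ADAMs are membrane proteases of the same wider family that release, or shed, the outer parts of other surface proteins, such as cytokines and adhesion molecules. TIMPs are small proteins that bind and block these enzymes. In blood after stroke, MMP9 in particular is known for its link to damage of the blood-brain barrier.

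All 10 genes varied over the 6 time points (moderated F-test over the arrays, adjusted p of 0.0193 or lower), as did 55.5% of all 27596 probe sets, so that share says little about these genes by itself. Their changes were large beside those of the array. The median over the 10 genes of the largest change from 0 h was 0.87 on the log2 scale, against 0.24 over all probe sets. In 10 of 10 genes the largest change was a rise, as it was in 62.5% of all probe sets. The genes were chosen with earlier results of these data known, so this comparison cannot show that they stand out. The values over all probe sets were also not matched to the mean signal of the 10 genes. Mmp9, Adam8 and Timp2 were furthest from 0 h at 2 h, Vcan at 3 h, Mmp25, Mmp14, Mmp19, Adam17 and Timp1 at 6 h, and Timp3 at 24 h. Mmp9 and Mmp25 rose over 6-fold, Vcan over 5-fold and Adam8 over 2-fold, whereas no inhibitor reached 2-fold at any time point.

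Each value below is the authors' mean log2 RMA signal (the normalized probe brightness of an array) at a time point, with the authors' SD and the number of arrays, and each change is a difference of such means. Signals of different genes are not compared, since probes differ in brightness. Tests are limma-style moderated tests built from these means and SDs, with Benjamini-Hochberg adjustment over all 27596 probe sets, and a change was called at an adjusted p below 0.05. They treat the arrays as independent although the rats were sampled repeatedly, and the values of single rats were not analysed here, so whether single rats overlapped between time points is not shown. Blood is a mixture, and more cells of a type cannot be told apart from more RNA per cell.

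**Figure D1:**
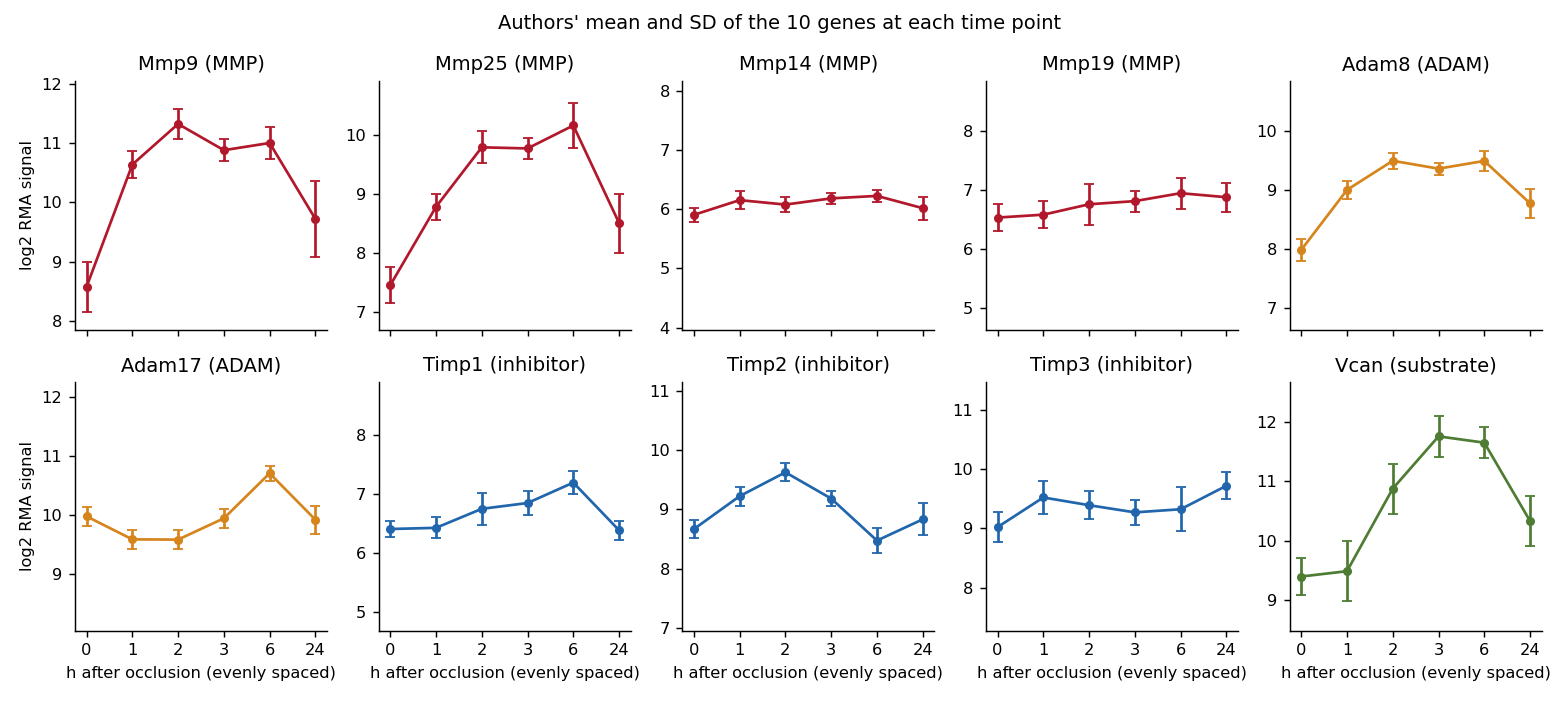
Authors' mean log2 RMA signal (points) and SD (bars) of the 10 genes at 0, 1, 2, 3, 6 and 24 h after occlusion, 8 arrays per point and 7 at 6 h, with the time points evenly spaced and each panel spanning the same number of log2 units. Mmp9, Mmp25 and Adam8 were high from 2 h to 6 h and Vcan from 3 h to 6 h, and all 4 came part of the way back by 24 h, Adam17 and Timp1 peaked at 6 h, Timp2 peaked at 2 h, and Mmp14 and Mmp19 hardly moved on this scale.

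The stretches just before the start sites of 4 members are shown first, as examples of the courses over time described below. Mmp25 and Adam8 rose from 1 h, Vcan from 2 h, and Timp1 peaked at 6 h. Those of Adam17, Timp2 and Timp3, which had other courses, were searched but are not printed. The printed stretches are the 250 bases upstream of the transcription start in RefSeq on the GRCr8 build, all on the minus strand. They are printed 5′ to 3′, with matches to the motifs searched in capitals. Mmp25 is at chr10:13180504-13180753, Adam8 at chr1:204218323-204218572, Timp1 at chrX:3771123-3771372 and Vcan at chr2:22595956-22596205.
Mmp25: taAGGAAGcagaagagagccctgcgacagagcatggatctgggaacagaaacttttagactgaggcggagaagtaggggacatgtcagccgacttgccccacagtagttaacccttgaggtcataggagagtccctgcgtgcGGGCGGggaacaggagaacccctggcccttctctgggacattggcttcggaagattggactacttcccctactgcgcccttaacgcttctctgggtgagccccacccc
Adam8: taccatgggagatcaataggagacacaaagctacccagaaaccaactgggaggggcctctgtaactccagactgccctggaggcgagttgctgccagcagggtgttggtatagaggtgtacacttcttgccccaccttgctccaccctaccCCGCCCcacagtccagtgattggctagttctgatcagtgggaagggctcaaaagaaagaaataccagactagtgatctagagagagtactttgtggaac
Vcan: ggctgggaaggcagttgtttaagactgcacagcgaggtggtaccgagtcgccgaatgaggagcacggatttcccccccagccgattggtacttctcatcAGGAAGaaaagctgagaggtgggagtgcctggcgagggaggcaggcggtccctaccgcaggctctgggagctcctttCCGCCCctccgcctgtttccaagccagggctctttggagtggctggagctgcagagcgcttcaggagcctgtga
Timp1: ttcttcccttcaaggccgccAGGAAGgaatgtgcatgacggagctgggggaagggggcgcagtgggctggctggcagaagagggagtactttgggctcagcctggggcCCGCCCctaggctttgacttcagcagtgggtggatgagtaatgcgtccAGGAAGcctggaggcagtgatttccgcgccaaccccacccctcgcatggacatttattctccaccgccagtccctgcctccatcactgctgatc
Of the 10 genes, 7 had such a stretch in the RefSeq table, and Mmp9, Mmp14 and Mmp19 had none. A GC box (GGGCGG, either strand) lay in the stretch of 7 of these 7 genes, against 30.5% of 33469 stretches of all genes. The GC content of the 7 genes' stretches was 52.4% to 72%, all above the median of 51.2% over all stretches, and its part in this count was not tested. An ETS-type motif (AGGAAG, either strand) was found for Mmp25, Adam17, Timp1 and Vcan, 4 of 7, against 29.5% of all stretches. Vcan had another stretch, at chr2:22595858-22596107, which overlaps the printed one and also held a GC box and an ETS-type motif. A gene can thus have more than a single stretch, so counts per gene and shares per stretch are not the same measure. Neither the AP-1 motif (TGANTCA, 6.34% of all stretches) nor the TATA box (TATAAA, 12.9%) was found in any of the 7. Only exact strings were counted, so near matches such as tgagtaa in the Timp1 stretch were left out. The lack of a match thus does not show that a site is absent. A match is a string of letters and not a site of binding, and these motifs do not overlap one another. The GRCr8 positions are not those of the array's annotation, which is on rn5.

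Mmp9 encodes gelatinase B, which neutrophils keep in their granules (chromosome 3, plus strand, 167597817 to 167605882 on rn5, probe set 10842239). Its mean signal was 8.57 ± 0.42 (SD, n = 8) at 0 h, 10.64 ± 0.23 (n = 8) at 1 h and 11.32 ± 0.25 (n = 8) at 2 h. It was then 10.88 ± 0.19 (n = 8) at 3 h, 11.003 ± 0.27 (n = 7) at 6 h and 9.72 ± 0.65 (n = 8) at 24 h. The means from 1 h to 6 h stood several SDs above 0 h, and at 24 h the mean was still above it but with the widest spread of the time course. Mmp9 was 2.06 ± 0.18 (SE) log2 units, or 4.18-fold, above 0 h at 1 h (adjusted p = 7.15e-13), the 4th largest rise among all probe sets at that time. At 2 h the rise was 2.75 ± 0.18, or 6.73-fold (adjusted p = 1.11e-17), and the 5th largest. The further step from 1 h to 2 h was 0.69 ± 0.18 (adjusted p = 0.00763). In descending order the time points ran 2, 6, 3, 1, 24 and 0 h. The neighbours 2 h and 6 h, 6 h and 3 h, and 3 h and 1 h did not differ past the threshold (adjusted p of 0.303, 0.801 and 0.454), while 24 h was below 1 h and above 0 h (adjusted p = 3.01e-04 and 2.53e-06). At 24 h 41.6% of the largest log2 change remained.

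Mmp25 encodes a membrane-type MMP held on the neutrophil surface by a lipid anchor (probe set 10740843, which the array's annotation places on no assembled chromosome). Its mean was 7.46 ± 0.30 (n = 8) at 0 h, 8.78 ± 0.22 (n = 8) at 1 h, 9.79 ± 0.27 (n = 8) at 2 h, 9.77 ± 0.18 (n = 8) at 3 h, 10.16 ± 0.38 (n = 7) at 6 h and 8.51 ± 0.50 (n = 8) at 24 h. The signal was thus up by 1 h, higher again by 2 h, and had no called step from there to 6 h. The rise was 1.32 ± 0.15 (SE) at 1 h (adjusted p = 3.35e-09), and 2.70 ± 0.16, or 6.49-fold, at 6 h (adjusted p = 7.2e-19). The step from 1 h to 2 h was 1.01 ± 0.15 (adjusted p = 9.89e-06), whereas 3 h and 2 h differed by -0.02 (95% confidence interval -0.33 to 0.29). From 6 h to 24 h the signal fell by 1.65 ± 0.16 (adjusted p = 2.22e-11), to a level that did not differ past the threshold from that at 1 h (adjusted p = 0.38). At 24 h 39.0% of the largest change remained. Mmp9 was ahead of Mmp25 at 1 h by 0.74 log2 units of change and behind it by 0.27 at 6 h, differences between genes that were not tested.

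Mmp14 encodes the collagen-cutting membrane-type enzyme MT1-MMP, which also activates other MMPs (chromosome 15, plus strand, 36960251 to 36969507, probe set 10780205). Its means lay within a narrow band, from 5.91 ± 0.11 (n = 8) at 0 h to 6.23 ± 0.10 (n = 7) at 6 h. Rises of 0.25, 0.17, 0.28 and 0.32 at 1, 2, 3 and 6 h, each with an SE of 0.07, passed the test (adjusted p of 0.00371, 0.0383, 8.75e-04 and 2.58e-04), and the value at 24 h was 0.11 (adjusted p = 0.208). The call at 2 h was lost when the means were centred on the median of each time point or quantile normalized (adjusted p of 0.0931 and 0.24), and that at 1 h when quantile normalized (adjusted p = 0.0625). No neighbours in the order of its levels differed past the threshold.

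Mmp19, whose enzyme cuts components of basement membranes (chromosome 7, plus strand, 3187951 to 3195410, probe set 10893231), moved late and little. Its mean was 6.53 ± 0.23 (n = 8) at 0 h, 6.58 ± 0.22 (n = 8) at 1 h, 6.94 ± 0.26 (n = 7) at 6 h and 6.88 ± 0.24 (n = 8) at 24 h. The change was 0.41 ± 0.13 (SE), or 1.33-fold, at 6 h (adjusted p = 0.00683) and 0.34 ± 0.12 at 24 h (adjusted p = 0.0263), and those at 1, 2 and 3 h did not pass. The 24 h call was lost when each time point was centred on its median or quantile normalized (adjusted p of 0.0567 and 0.0708). Unlike for the other MMPs, the 24 h mean was near the 6 h mean, with a difference of -0.07 (95% confidence interval -0.32 to 0.18).

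Adam8 encodes a shedding protease of granulocytes and other myeloid cells that can cut L-selectin (chromosome 1, minus strand, 219236990 to 219248402, probe set 10726550). Its mean was 7.99 ± 0.19 (n = 8) at 0 h, 9.002 ± 0.15 (n = 8) at 1 h, 9.49 ± 0.14 (n = 8) at 2 h, 9.36 ± 0.10 (n = 8) at 3 h, 9.49 ± 0.17 (n = 7) at 6 h and 8.77 ± 0.24 (n = 8) at 24 h. Spread within a time point was small beside the change, and Adam8 had the largest ratio of the 10 genes of its largest change to its highest SD, 6.31. The rise was 1.01 ± 0.08 (SE) at 1 h (adjusted p = 2.6e-13) and 1.51 ± 0.08, or 2.84-fold, at 2 h (adjusted p = 9.98e-20). The 2 h and 6 h means did not differ past the threshold (adjusted p = 0.993, 95% confidence interval of the difference -0.18 to 0.17). At 24 h Adam8 was 0.79 ± 0.08 above 0 h (adjusted p = 1.08e-09), or 52.2% of its largest change.

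Adam17 encodes TACE, the protease that releases TNF from the cell surface (chromosome 6, minus strand, 60268228 to 60315989, probe set 10889339). It was the only member with a called fall from 0 h. Its mean was 9.98 ± 0.16 (n = 8) at 0 h, 9.59 ± 0.16 (n = 8) at 1 h, 9.59 ± 0.16 (n = 8) at 2 h, 9.95 ± 0.16 (n = 8) at 3 h, 10.71 ± 0.13 (n = 7) at 6 h and 9.92 ± 0.24 (n = 8) at 24 h. The signal was thus lowest at 1 h and 2 h, back near its start at 3 h, highest at 6 h and back again at 24 h. Adam17 was -0.39 ± 0.08 (SE) from 0 h at 1 h and -0.39 ± 0.08 at 2 h (adjusted p of 3.47e-04 and 1.97e-04). It stood 0.73 ± 0.09, or 1.66-fold, above 0 h at 6 h (adjusted p = 2.45e-09). From 2 h to 6 h the rise was 1.12 ± 0.09, or 2.17-fold (adjusted p = 1.25e-13), and from 3 h to 6 h 0.76 ± 0.09 (adjusted p = 4.74e-08), the 48th largest rise of all probe sets over that step. The changes of -0.03 at 3 h and -0.06 at 24 h did not pass (95% confidence intervals -0.20 to 0.14 and -0.23 to 0.11).

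**Figure D2:**
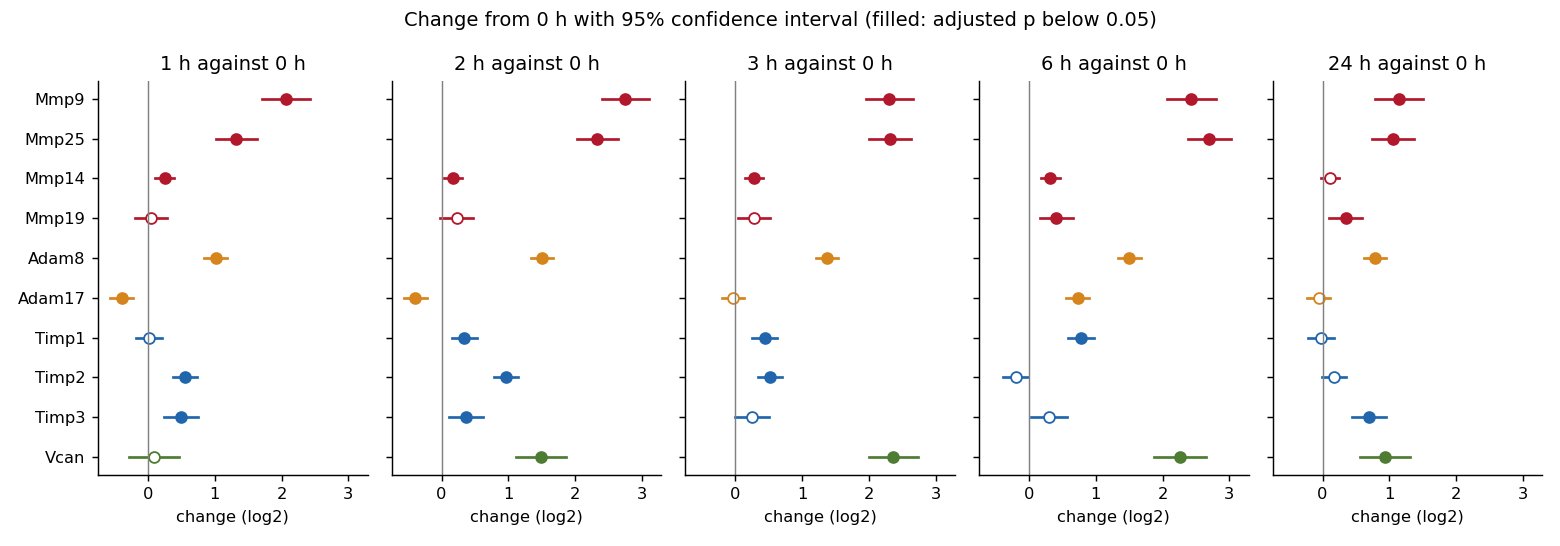
Change from 0 h of each gene on the log2 scale (points) at 1, 2, 3, 6 and 24 h, with its 95% confidence interval from the moderated test (bars), and filled points for an adjusted p below 0.05. Mmp9 and Mmp25 lay above 1 at every time point, Vcan was near 0 at 1 h and above 2 at 3 h and 6 h, and the 3 inhibitors stayed below 1 throughout.

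The inhibitors each followed a course of their own. Timp1 (chromosome X, minus strand, 2179963 to 2184576, probe set 10936482), the soluble inhibitor that pairs with the proenzyme of MMP9, had a mean of 6.41 ± 0.13 (n = 8) at 0 h, 6.43 ± 0.18 (n = 8) at 1 h, 6.75 ± 0.26 (n = 8) at 2 h, 6.85 ± 0.21 (n = 8) at 3 h, 7.19 ± 0.20 (n = 7) at 6 h and 6.38 ± 0.16 (n = 8) at 24 h. Its mean was thus near that of 0 h at 1 h and again at 24 h, and highest at 6 h. The change was 0.02 at 1 h (95% confidence interval -0.17 to 0.21), 0.34 ± 0.09 (SE) at 2 h (adjusted p = 0.0033) and 0.78 ± 0.10, or 1.72-fold, at 6 h (adjusted p = 5.8e-09). At 24 h the difference from 0 h was -0.02 (95% confidence interval -0.21 to 0.17). The steps from 1 h to 2 h and from 3 h to 6 h passed (adjusted p of 0.0225 and 0.0286), but not with the variance of only the pair of time points compared (adjusted p of 0.0548 and 0.0693).

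Timp2 (chromosome 10, minus strand, 106973463 to 107021165, probe set 10749484) encodes the inhibitor that also acts with MT1-MMP, the product of Mmp14, in activating the proenzyme of MMP2. Its mean was 8.67 ± 0.15 (n = 8) at 0 h, 9.22 ± 0.16 (n = 8) at 1 h, 9.63 ± 0.15 (n = 8) at 2 h, 9.18 ± 0.12 (n = 8) at 3 h, 8.47 ± 0.20 (n = 7) at 6 h and 8.83 ± 0.27 (n = 8) at 24 h. Timp2 peaked at 2 h and had its lowest mean at 6 h, when Timp1 was at its highest. The rise was 0.56 ± 0.09 (SE) at 1 h (adjusted p = 3.5e-06) and 0.96 ± 0.09, or 1.94-fold, at 2 h (adjusted p = 1.95e-12). It fell by 0.44 ± 0.09 from 2 h to 3 h (adjusted p = 0.00114) and by 0.71 ± 0.09 from 3 h to 6 h (adjusted p = 7.64e-07), the 22nd largest fall of all probe sets over that step. At 6 h it was -0.19 from 0 h (95% confidence interval -0.38 to -0.01, adjusted p = 0.0865).

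Timp3 (chromosome 7, minus strand, 23694427 to 23744372, probe set 10901231) encodes the matrix-bound inhibitor that can also block ADAM17. Its mean was 9.02 ± 0.25 (n = 8) at 0 h, 9.52 ± 0.28 (n = 8) at 1 h, 9.39 ± 0.23 (n = 8) at 2 h, 9.27 ± 0.21 (n = 8) at 3 h, 9.32 ± 0.37 (n = 7) at 6 h and 9.72 ± 0.22 (n = 8) at 24 h. It was the only member whose largest change came at 24 h. The rise was 0.50 ± 0.13 (SE) at 1 h (adjusted p = 0.00176), 0.37 ± 0.13 at 2 h (adjusted p = 0.0168) and 0.70 ± 0.13, or 1.62-fold, at 24 h (adjusted p = 3.86e-05). The changes of 0.25 at 3 h and 0.30 at 6 h did not pass (adjusted p of 0.101 and 0.059), and both passed when quantile normalized (adjusted p of 0.0349 and 0.0156). No neighbours in the order of its levels differed past the threshold. The 24 h samples alone came from the heart, and among 7 genes of heart muscle and vessel wall on the array 3 were called higher at 24 h and 5 at 3 h, with a median change of 0.12 at 24 h and 0.17 at 3 h, beside 17.4% and 27.3% of all probe sets called higher. These counts were 1 and 2 when quantile normalized, and 1 and 3 when centred. The 7 platelet genes had median changes of 0.26, 0.18, 0.07, 0.003 and 0.22 at 1, 2, 3, 6 and 24 h. Of these genes 3, 2, 1, 0 and 3 were called higher at those times, and 3, 1, 1, 0 and 2 when quantile normalized. The part of either list in the Timp3 values was not tested.

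Vcan encodes versican, a large chondroitin sulfate proteoglycan of the matrix that blood monocytes also make (chromosome 2, minus strand, 18363889 to 18463017, probe set 10820282). Its mean was 9.39 ± 0.32 (n = 8) at 0 h, 9.48 ± 0.51 (n = 8) at 1 h, 10.88 ± 0.42 (n = 8) at 2 h, 11.76 ± 0.34 (n = 8) at 3 h, 11.65 ± 0.26 (n = 7) at 6 h and 10.33 ± 0.42 (n = 8) at 24 h. Unlike Mmp9, Mmp25 and Adam8, it had no called change at 1 h. The change at 1 h was 0.09 (95% confidence interval -0.28 to 0.46, adjusted p = 0.727). The step from 1 h to 2 h, 1.39 ± 0.18 (SE) or 2.63-fold (adjusted p = 6.66e-07), was the largest rise of all 27596 probe sets over that step, and a further step of 0.88 ± 0.18 followed to 3 h (adjusted p = 0.00191). At 3 h Vcan was 2.37 ± 0.18, or 5.16-fold, above 0 h (adjusted p = 6.86e-15). The 3 h and 6 h means did not differ past the threshold (adjusted p = 0.837), and from 6 h to 24 h Vcan fell by 1.32 ± 0.19 (adjusted p = 4.58e-07). At 24 h 39.6% of the largest change remained.

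Counted over the 10 genes, 6 rose and 1 fell at 1 h, where 37.1% of all probe sets were called (21.7% higher and 15.4% lower). At 2 h 8 rose and 1 fell, with 40.4% of all probe sets called (21.7% higher and 18.6% lower). At 3 h 7 rose and none fell, with 46.5% called (27.3% higher and 19.2% lower). At 6 h 8 rose and none fell, with 41.8% called (22.5% higher and 19.3% lower). At 24 h 6 rose and none fell, with 31.2% called (17.4% higher and 13.9% lower). The share of the 10 genes called was above that of all probe sets at each of these times, and their median change was 0.38, 0.66, 0.48, 0.76 and 0.52 at 1, 2, 3, 6 and 24 h, against 0.04 to 0.07 over all probe sets. These counts share the 0 h arrays and so are not independent of one another. The genes were chosen with earlier results known, so a higher share than that of the array cannot show that they stand out.

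The steps between neighbouring time points set the members apart from each other. From 1 h to 2 h, where 8.78% of all probe sets were called (4.66% higher and 4.11% lower), 6 members rose, namely Mmp9, Mmp25, Adam8, Timp1, Timp2 and Vcan. From 2 h to 3 h, with 3.53% called (1.9% higher and 1.62% lower), Adam17 and Vcan rose and Timp2 fell. From 3 h to 6 h, with 4.78% called (2.34% higher and 2.44% lower), Adam17 and Timp1 rose and Timp2 fell. From 6 h to 24 h, with 18.9% called (10.2% higher and 8.68% lower), 7 members fell, Timp2 and Timp3 rose, and Mmp19 alone did not pass. The fall of Mmp14 and the rise of Timp3 over this step were not called with the variance of only those time points (adjusted p of 0.094 and 0.0547).

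The changes of enzymes and inhibitors were set side by side. The change of Mmp9 exceeded that of Timp1 by 2.04, 2.41, 1.87, 1.65 and 1.17 log2 units at 1, 2, 3, 6 and 24 h. Against Timp2 the difference was 1.51, 1.79, 1.79, 2.62 and 0.98 at the same times. Mmp14 minus Timp2 was -0.31, -0.79, -0.24, 0.51 and -0.05 at 1, 2, 3, 6 and 24 h. Adam17 minus Timp3 was -0.89, -0.76, -0.28, 0.43 and -0.76 at the same times. For both of these pairs the inhibitor's change was thus the higher at each time but 6 h. These are differences of fold changes and not of amounts, and they were not tested.

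The highest SD of the time course fell at 24 h in 6 of the 10 genes (Mmp9, Mmp25, Mmp14, Adam8, Adam17 and Timp2), or 60% of them, against 17.5% of all probe sets. For Mmp9 the SD was 0.65 at 24 h, 0.42 at 0 h and between 0.19 and 0.27 at the other times. For Mmp25 the values at 0, 6 and 24 h were 0.30, 0.38 and 0.50. Of 12 neutrophil markers, 5 had their highest SD at 24 h. For S100a8 it was 0.53 there and 0.31 at 0 h, for Fpr1 0.55 and 0.50, and for Cxcr2 0.31 and 0.34.

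Most other genes of these families changed little. Of 18 other MMPs on the array, 10 rose at 2 h and 8 at 6 h and none fell (21.7% and 22.5% of all probe sets were called higher), with a median change of 0.15 at 2 h and 0.13 at 6 h. The largest of these rises were those of Mmp27 and of Mmp8, the neutrophil collagenase. Mmp27 rose by 1.28 and 1.39 at 2 and 6 h, and Mmp8 by 1.07 and 0.99. Of 23 other ADAMs, 8 rose and 1 fell at 6 h, where 22.5% of all probe sets were called higher and 19.3% lower (41.8% in either direction). The rises were led by Adam19 (1.22, through a probe set that carries more than a single symbol) and Adam9 (1.13). The ADAMTS enzymes include the main versican-cutting proteases. Of 24 genes in the ADAMTS list, which also holds the ADAMTS-like genes Adamtsl1 to Adamtsl5, 10 rose and 2 fell at 6 h, beside the same shares. The called rises in this list at 6 h were 0.26 or less. Many of these small rises turned on the scaling. When quantile normalized, calls over all probe sets at 3 h, in either direction, went from 12835 to 10291. The called rises at 3 h went from 12 to 5 among the other MMPs and from 14 to 7 in the ADAMTS list. At 6 h they went from 8 to 5 and from 10 to 4, and at 24 h from 5 to 3 and from 9 to 1, while 2 ADAMTS genes were called lower at 3 h and at 6 h under either scaling.

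**Figure D3:**
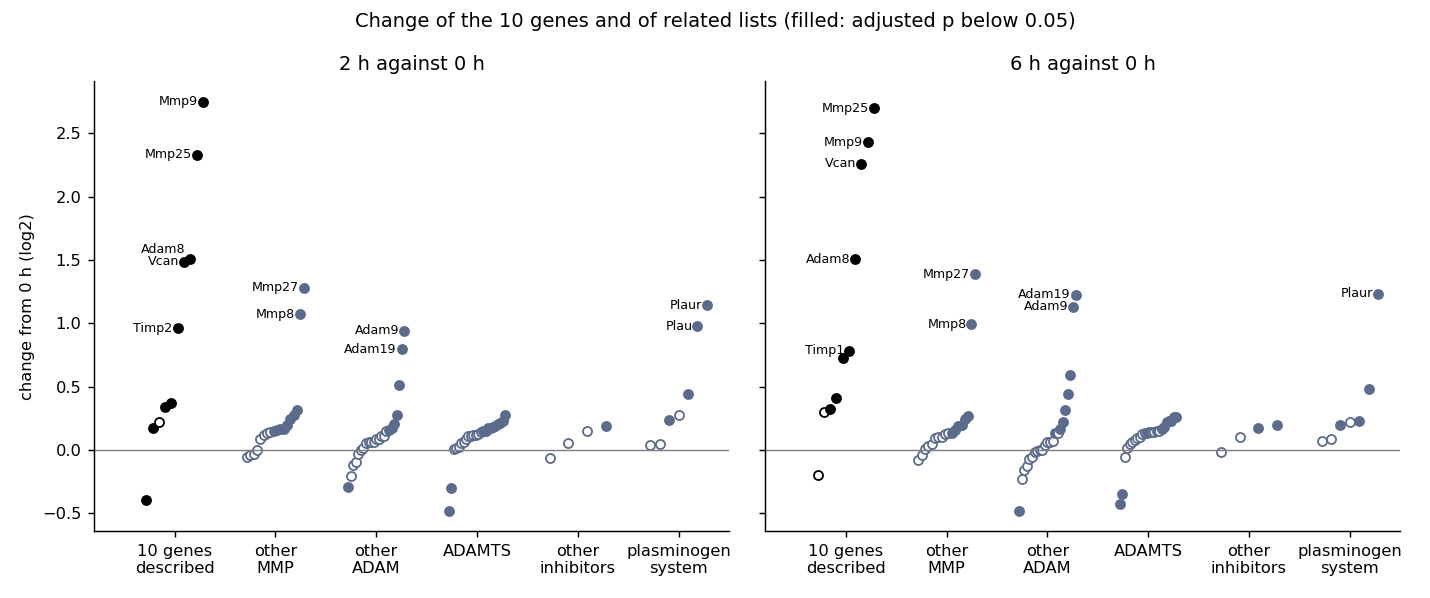
Change from 0 h (log2) of the 10 genes (black) and of 5 related lists (blue-grey) at 2 h and 6 h, each point a gene, ordered by its change within a list, and filled for an adjusted p below 0.05. Most family members lie near 0, and Mmp27, Mmp8, Adam19, Adam9 and Plaur are the highest outside the 10 genes at 6 h.

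Among 7 genes of the plasminogen system, which can activate MMP proenzymes, 5, 4, 5, 4 and 6 rose at 1, 2, 3, 6 and 24 h and none fell, beside 17.4% to 27.3% of all probe sets called higher. When quantile normalized, 2 rose at 1 h and 2 at 6 h. Plat did not pass at any time, nor Serpine2 at 2, 3 or 6 h. Plaur, the urokinase receptor, rose by 1.02 at 1 h and reached 1.23 by 6 h, and Plau, urokinase itself, by 0.98 at 2 h. Serpinb2, an inhibitor of urokinase, rose by 1.31 at 24 h, where Plaur had come down to 0.43. Of the other 4 protease inhibitors listed (Timp4, Reck, A2m and Serpina1), 1 rose at 2 h and 2 at 24 h, and the largest called change was that of Timp4, 0.27 at 3 h.

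Of the 4 genes that work with ADAM17, 2, 1, 2, 1 and 0 were called higher and 1, 0, 1, 1 and 0 lower at 1, 2, 3, 6 and 24 h, when 37.1%, 40.4%, 46.5%, 41.8% and 31.2% of all probe sets were called in either direction. These calls turned on the scaling: when quantile normalized, 1 was called higher and 0 were called lower at each time, namely Furin at 1 and 24 h and Rhbdf2 at 2, 3 and 6 h. Furin, the protease that removes the ADAM17 propeptide, rose by 0.42 at 1 h. Rhbdf1 was at 0.15 at 1 h and Frmd8 at -0.14 at 3 and 6 h, calls that were lost when quantile normalized. Rhbdf2, an iRhom that carries ADAM17 to the cell surface, was at -0.28 at 1 h, a call also lost when quantile normalized, and rose by 0.43 and 0.62 at 2 and 6 h, so that it was up at 2 h when Adam17 was still down. Of 10 genes whose proteins ADAM17 sheds, 6 rose and 2 fell at 2 h, and 5 rose and 2 fell at 6 h, to be read beside the same shares. Il1r2, the decoy receptor for interleukin-1, rose by 2.95 and 3.33 at 2 and 6 h, Tnf by 1.40 and 1.53, and Tnfrsf1a by 0.62 and 0.81. Csf1r and Tnfrsf1b were the ones that fell, by 1.05 and 0.22 at 6 h.

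Of 6 genes that bind, induce or are cut by MMP9, 4 rose and 1 fell at 6 h, beside 41.8% of all probe sets called. Lcn2, whose protein binds MMP9 in neutrophils, rose by 2.81 at 6 h and stood at 0.12 at 24 h. Il1b, which was 0.92 up at 6 h, kept 0.72 at 24 h. Of 15 versican partners, 11 rose at 3 h and 9 at 6 h and none fell, beside 27.3% and 22.5% of all probe sets called higher. When quantile normalized, 6 of them rose at 3 h and 8 at 6 h. Calls over all probe sets at 3 h, in either direction, then went from 12835 to 10291, of which 52.4% were higher. Tlr2, a receptor for versican, rose by 0.97 at 1 h, before Vcan, and by 1.62 at 2 h, and Selp (P-selectin) rose by 1.40 and Fbln1 (fibulin-1) by 1.33 at 6 h.

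The cell type markers moved too. Over all probe sets, 21.7%, 21.7%, 27.3%, 22.5% and 17.4% were called higher than 0 h at 1, 2, 3, 6 and 24 h, and 15.4%, 18.6%, 19.2%, 19.3% and 13.9% were called lower. Of 12 neutrophil markers, 11 rose at 1 h and 10 at 2, 3 and 6 h, with median changes of 0.82, 1.32, 1.25 and 1.40, and at 24 h 6 rose and 1 fell, with a median of 0.36. Csf3r, Cxcr2, Fpr1, S100a8 and S100a9 were among the risers, whereas Ltf did not pass at any time. The 10 monocyte markers were split, since 6, 5, 6 and 6 fell and 1, 3, 4 and 4 rose at 1, 2, 3 and 6 h, with a median between -0.53 and -0.45, and at 24 h 5 fell and 5 did not pass. At 3 h, the hour of the highest Vcan signal, the 4 that rose were Cd14 (1.84), Ccr2 (0.68), Lyz2 (0.24) and Cd163 (0.21), of which 3 passed when quantile normalized, whereas Cx3cr1 fell by 1.45. Of 6 T cell markers 6 fell at each time point, and the median of 6 B cell markers was -2.13 at 3 h and -0.53 at 24 h. The 5 erythroid markers had medians of 0.12, 0.03, 0.08, -0.13 and 0.17 at 1, 2, 3, 6 and 24 h. Of them 2, 0, 1, 0 and 2 were called higher and 0, 0, 0, 2 and 0 lower. The 5 NK cell markers had a median of -0.81 at 6 h. The rises of Mmp9, Mmp25 and Adam8 ran alongside the neutrophil list, and at 24 h, where Mmp9 stood at 1.15 and Mmp25 at 1.05, the list was split. Fpr1 stood at 1.24, Csf3r at 0.88, Cxcr2 at 0.82, S100a9 at 0.78 and S100a8 at 0.71, all called, while Ngp fell by 0.90 and Ltf was at 0.03. The part of the cell mixture in the changes of the 10 genes was not tested.

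**Figure D4:**
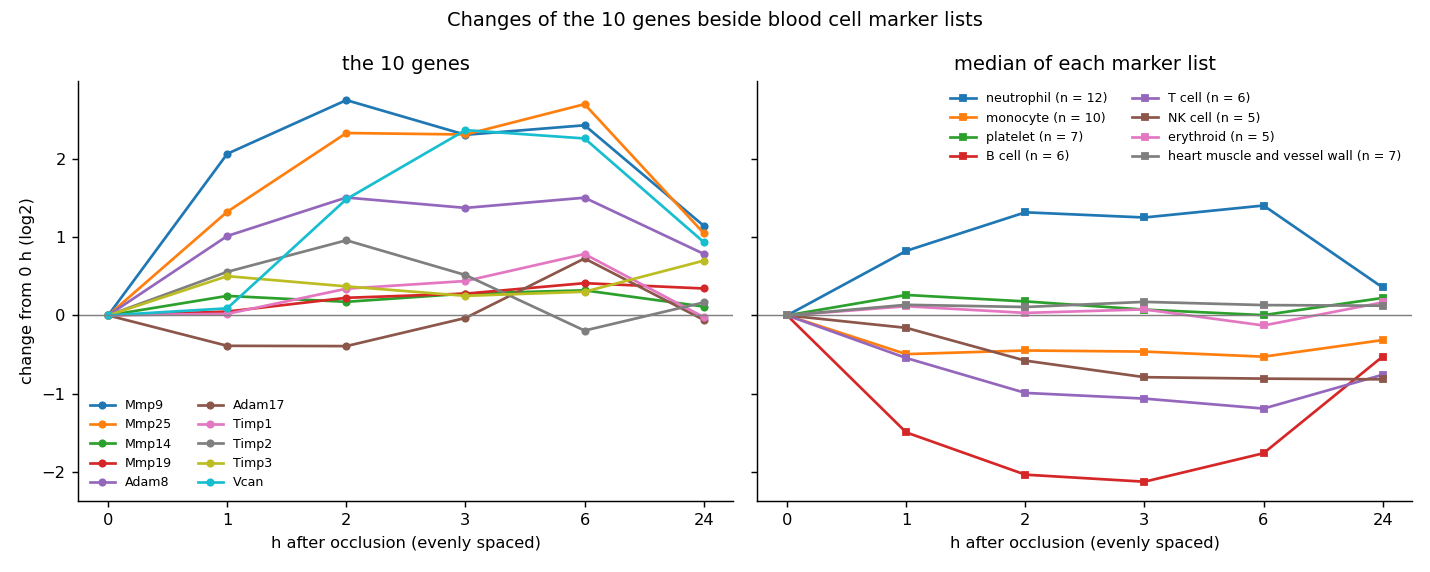
Change from 0 h (log2) of the 10 genes (left) and the median change of each marker list (right, with the number of genes on the array) at 0, 1, 2, 3, 6 and 24 h, evenly spaced. The neutrophil median rises to 1.40 at 6 h and comes down to 0.36 at 24 h, the B cell median reaches -2.13 at 3 h, and Mmp9, Mmp25 and Vcan reach between 2.37 and 2.75.

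The genes whose 5 changes from 0 h lay nearest to those of a member were sought among 20436 probe sets with a single symbol, by the root mean square difference in log2 units, as a description. For Mmp9 the nearest was Fpr1 (0.13), the formyl peptide receptor of neutrophils, then Bmx (0.30) and Pram1 (0.31), and Mmp25 came 5th (0.40). For Mmp25 they were Dgat2 (0.15), Pram1 (0.19) and Cpm (0.20), and for Adam8 they were Mettl9 (0.07), Tf (0.08) and Lrg1 (0.09). Vcan lay nearest to Dab2 (0.29), Csf2rb (0.30) and Msr1 (0.34), and Msr1 is a scavenger receptor of macrophages. Adam17 lay nearest to RGD621098 (0.07), Enpp3 (0.12) and Pdia6 (0.13), all with a low value at 1 h and 2 h and a high value at 6 h. Timp1 lay nearest to Synj1 (0.04), Clec2e (0.07) and Ccnl2 (0.08). Timp2 lay nearest to Trpm2 (0.11), Qpct (0.13) and Dfna5 (0.16). Timp3 lay nearest to Rxfp1 (0.06), Opn3 (0.06) and Sdpr (0.07). Small differences are easier to reach for genes with small changes, so the values do not rank the members.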

How the data were processed

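Blood RNA was measured on 47 arrays. The authors deposited 1 table of 27596 probe sets with log2 RMA signals, as means and SDs per time point. It also has 47 single-array columns, named only by numbers from 1 to 48 without 17. No label or header ties a number to a rat or an hour, samples were not assigned by order, and the columns were not used, so the planned fit to single arrays was replaced by the planned fit to means and SDs. Columns of the authors' fold changes, p-values, FDRs and F-tests were not used. The software and settings behind the RMA values are not given in the sources used here, and the array background of single arrays was not assessed. Precision is limited by the 7 or 8 arrays per time point.

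The within-time-point variance was pooled over the 6 time points (41 residual degrees of freedom) and moderated with squeezeVar of limma 3.58.1 in R 4.3.3 (median prior degrees of freedom 5.71), as in limma's eBayes, and contrasts and an F-test were adjusted by Benjamini-Hochberg over all probe sets, with a threshold of 0.05 and 95% intervals. The test was also run on simulated data, but the outcome is not reported here and nothing above rests on it. All 10 genes were named whatever their values, with the 3 nearest profiles of members whose largest change was at least 0.5, and list members past the threshold with the largest changes. The genes and lists were chosen with earlier results of these data known. The 6 pairs of time points that are neither against 0 h nor neighbours, and the scaling of the lists, were added after the table had been examined. Alternatives were a filter on the lowest 25% of probe sets by mean, which all 10 genes passed, centring, quantile normalization, other variance estimates, and leaving out 24 h. Positions are those of the table (rn5), and promoter stretches are RefSeq's (GRCr8). Python 3.11.15 and pandas 2.3.3 were used.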

Additional observations from a re-analysis of the deposited data

How the results depend on the processing

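The counts of the 10 genes called, over the F-test and the 9 planned comparisons, stayed within 1.5 times their value in all 60 recounts under alternative settings. Leaving out 24 h was run for the F-test only. The rule is loose for small counts: that for the step from 3 h to 6 h went from 3 to 2 with the variance of those time points only. Of 540 values of single genes under the alternative settings, 518 kept direction and call, 9 lost the call and 6 gained it. None that was called reversed, and 7 uncalled values near 0 changed sign. Only centring and quantile normalization alter the changes themselves, so under the other settings no direction could turn. Calls lost or gained were of Mmp14, Mmp19, Timp1, Timp2, Timp3 and of Mmp9 for the step from 2 h to 3 h, which was -0.44 with an adjusted p of 0.176, or 0.0202 with the variance of those time points only. Timp2 at 24 h was called when quantile normalized (adjusted p = 0.0312), and Mmp19 at 3 h was called with that variance (adjusted p = 0.026) and with the filter on low values (adjusted p = 0.049). Over all probe sets, the step from 3 h to 6 h had 1319 calls, and 737 with the variance of those time points only. Centring moved the share of higher calls from 58.6% to 40.0% at 1 h, from 58.7% to 47.2% at 3 h, from 55.6% to 37.3% at 24 h, and from 53.1% to 64.4% from 1 h to 2 h. No paired analysis was possible because single-array columns were used here only where their names match a sample, and theirs are bare numbers. The single missing number, 17, is where rat 3 at 6 h, which has no sample in the labels used here, would stand if the columns ran rat by rat in order of time. That order is not stated, was not assumed and was not tested against the means and SDs, so the fit by rat was left out. No member had another probe set, so that alternative was not run. The cause of these shifts was not tested.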
